A study of Homo sapiens with 40 samples.

Results

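The 48 genes described here encode the machinery that copies DNA in S phase. They were the rows of the count table that carried 48 listed symbols of DNA replication, and all 48 were present among the 12655 genes of the table and passed the filter on low counts in both cell lines. By role, 11 act in licensing of replication origins, 6 in helicase activation, 8 in the replicative polymerases, 6 in the sliding clamp and its loader, 2 in Okazaki fragment maturation, 3 in single-strand DNA binding, 4 in nucleotide supply, 5 in chromatin and DNA methylation at the fork, and 3 in driving entry into S phase.

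RNA was measured in 40 libraries from spheroids of 2 cell lines, FaDu, from a squamous carcinoma of the hypopharynx, and Kyse30, from an oesophageal squamous carcinoma, each carrying the photoconvertible fluorescent protein Dendra2. Per the labels' protocols all spheroids lay in type I collagen for 72 h. In each line 4 libraries came from each of 5 groups, which were 9 nM EGF with 100 nM AZD6244 (an inhibitor of the kinase MEK), 9 nM EGF with 10 µg/mL cetuximab (an antibody against the EGF receptor), EGF-treated invasive cells, EGF-treated non-invasive cells, and serum-free medium without EGF. The genotype label is wildtype throughout. Invasive and non-invasive cells were divided by the sample titles, whereas the label on cell selection has the same entry for both. The 3 other groups are labelled unselected, so in a comparison of 1 of them with non-invasive cells, treatment and cell selection cannot be told apart. Per the protocol, 40 spheroids were photoconverted per treatment and pooled. The labels do not call replicates separate cultures, and the spread that p-values rest on is that between libraries, which may be technical.

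Replication starts when the origin recognition complex, CDC6 and CDT1 load the MCM helicase onto DNA in G1. CDC45 and the GINS complex then turn that helicase on, and polymerases alpha, delta and epsilon copy the strands with the clamp PCNA, while ribonucleotide reductase, thymidylate synthase and thymidine kinase supply the nucleotides. E2F transcription factors switch many of these genes on once cyclin-dependent kinases inactivate the retinoblastoma protein, and growth factor signalling through the EGF receptor, MEK and ERK reaches that switch mainly through cyclin D1.

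Promoters with and without an E2F-type word are shown because E2F sites are a feature many of these genes are known to share. RefSeq start sites of GRCh38.p14 were matched for 40 of the 48 members, and MCM4, MCM5, GINS4, POLD3, RPA2, RPA3, TONSL and CCNE2 are named only. An E2F-type word (TTTCCCGC, TTTGGCGC, TTTCGCGC or TTTGCCGC on either strand) was found between 250 bases before and 50 bases after the start in 21 of these 40 members, or 52.5%, against 6.72% of the 9812 genes of the table with a promoter. Printed 5′ to 3′ on the gene's strand are the 250 bases before the start. The first 5 members had the largest change in FaDu non-invasive cells against serum-free medium among those with a match in this stretch. The last 2 are the members matched to a start site with the smallest change there, and they hold none of the 8-letter words. CDC6, RRM2, MCM10, ORC1 and ORC6 hold no match in this stretch and are not printed. RRM2, MCM10, ORC1 and ORC6 changed more than 4 of the 5 shown, and CDC6 more than all 5. CDC6 holds 1 match in the longer stretch searched, which reaches 50 bases past the start. Capitals mark the matches.
UHRF1: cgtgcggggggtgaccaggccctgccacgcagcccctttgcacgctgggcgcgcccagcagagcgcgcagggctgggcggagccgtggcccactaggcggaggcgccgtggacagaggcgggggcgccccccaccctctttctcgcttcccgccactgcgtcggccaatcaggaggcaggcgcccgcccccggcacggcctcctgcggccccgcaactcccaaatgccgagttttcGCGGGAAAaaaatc
CDT1: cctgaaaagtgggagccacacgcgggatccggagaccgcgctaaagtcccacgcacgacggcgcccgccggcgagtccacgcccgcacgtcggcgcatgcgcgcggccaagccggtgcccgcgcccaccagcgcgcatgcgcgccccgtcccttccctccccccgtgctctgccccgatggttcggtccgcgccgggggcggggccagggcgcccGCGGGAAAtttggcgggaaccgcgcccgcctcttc
GINS2: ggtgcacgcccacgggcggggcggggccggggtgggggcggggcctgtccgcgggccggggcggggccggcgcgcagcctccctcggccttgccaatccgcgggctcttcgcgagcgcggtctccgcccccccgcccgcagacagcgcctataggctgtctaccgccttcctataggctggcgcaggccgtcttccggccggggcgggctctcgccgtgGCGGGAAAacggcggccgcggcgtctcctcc
TYMS: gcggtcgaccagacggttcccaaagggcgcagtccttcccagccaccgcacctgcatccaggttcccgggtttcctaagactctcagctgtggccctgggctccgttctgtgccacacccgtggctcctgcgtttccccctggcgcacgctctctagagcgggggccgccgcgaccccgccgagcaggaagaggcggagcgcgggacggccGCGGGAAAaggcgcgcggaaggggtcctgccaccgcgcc
E2F1: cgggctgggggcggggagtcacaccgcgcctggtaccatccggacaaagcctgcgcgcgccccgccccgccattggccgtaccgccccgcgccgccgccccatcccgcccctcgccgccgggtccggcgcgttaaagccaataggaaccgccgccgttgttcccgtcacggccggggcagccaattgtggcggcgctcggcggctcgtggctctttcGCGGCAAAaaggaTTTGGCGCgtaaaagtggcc
RPA1: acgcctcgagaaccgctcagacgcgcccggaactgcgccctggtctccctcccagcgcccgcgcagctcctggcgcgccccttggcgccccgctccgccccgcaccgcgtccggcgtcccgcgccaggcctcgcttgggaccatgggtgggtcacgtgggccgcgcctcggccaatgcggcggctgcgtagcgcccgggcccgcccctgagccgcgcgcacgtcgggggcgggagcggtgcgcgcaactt
RFC1: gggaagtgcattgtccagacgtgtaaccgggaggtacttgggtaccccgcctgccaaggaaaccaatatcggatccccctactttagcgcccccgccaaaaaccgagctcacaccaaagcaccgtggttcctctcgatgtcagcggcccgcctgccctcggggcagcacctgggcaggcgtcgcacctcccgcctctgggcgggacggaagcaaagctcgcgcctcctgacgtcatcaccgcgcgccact
These stretches lie at chr19:4909251-4909500 (UHRF1, plus strand), chr16:88803539-88803788 (CDT1, plus strand), chr16:85688955-85689204 (GINS2, minus strand), chr18:657403-657652 (TYMS, plus strand), chr20:33686386-33686635 (E2F1, minus strand), chr17:1829755-1830004 (RPA1, plus strand) and chr4:39366363-39366612 (RFC1, minus strand). The matches began 14 bases before the start in UHRF1, 35 in CDT1, 31 in GINS2, 39 in TYMS, and 33 and 20 in E2F1. A shorter 7-letter core contained in those words (the same words without their first base) was found in 82.5% of the 40 members and in 25.2% of the table's genes. RPA1 holds 1 such core and RFC1 holds 2 in the whole stretch searched, and these cores are not marked. The words CCAAT and GGGCGG were found in 62.5% and 77.5% of members, against 43.8% and 77.3% of the table's genes, and the median GC content was 68.0% against 65.0%. The 21 members with the 8-letter word had a median log2 fold change of 2.02 between non-invasive cells and serum-free FaDu spheroids, and the 19 without it had 1.89 (ranges 1.21 to 4.31 and 0.25 to 4.04).

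The libraries held 2538447 to 4534339 counts in Kyse30, apart from the first invasive replicate with 463124, and 2312126 to 5669262 in FaDu. In that shallow library 32 of the 48 members had 0 counts and mitochondrial genes took 26.6% of counts. The counts of members called in Kyse30 are therefore given for all 20 libraries and for the 19 without it, and a Kyse30 fold change is from all 20 unless the 19 are named. The mitochondrial share differed between groups. In Kyse30 its means were 11.5% with the MEK inhibitor, 11.6% with cetuximab, 15.8% in invasive cells, 13.5% in non-invasive cells and 22.0% in serum-free medium, and in FaDu they were 10.9% with the MEK inhibitor, 8.38% with cetuximab, 11.4% in invasive cells, 9.37% in non-invasive cells and 15.3% in serum-free medium. Its part in the results was not tested. Over the 20 libraries of each line, the squamous keratin KRT5 had 21 counts in Kyse30 and 37972 in FaDu, KRT14 had 11 in Kyse30 and 658 in FaDu, and the epithelial marker EPCAM had 17434 in Kyse30 and 10755 in FaDu. Both lines thus carried an epithelial marker, and the basal keratins were near 0 in Kyse30. Of 12 stromal, endothelial and immune markers, 3 were in the table, COL1A1, CDH5 and CD68, at a sum of 8.44 to 54.0 CPM in Kyse30 and 7.62 to 30.2 CPM in FaDu. CPM in these sums are counts divided by the library total, and elsewhere counts divided by the scaled library size. In FaDu non-invasive cells against serum-free medium CD68, with 341 counts over the 20 libraries, rose by 3.00 ± 0.60 on the log2 scale and CDH5, with 67 counts, fell by 5.29 ± 1.19 (SE, edgeR adjusted p = 0.000169 and 0.000715). COL1A1 fell there too, and 2 of 8 squamous epithelial markers rose and 3 fell. CDH5 also fell in Kyse30 (-2.49 ± 0.47, edgeR adjusted p = 0.000755), where 2 of 6 squamous markers tested rose and 0 fell. The part of these markers in the results was not tested.

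In FaDu the whole replication set was more abundant with EGF. The summed level of the 48 genes averaged 2065 ± 327 CPM with EGF and the MEK inhibitor, 4013 ± 610 CPM with EGF and cetuximab, 4005 ± 528 CPM in invasive cells, 3227 ± 189 CPM in non-invasive cells and 1023 ± 96.5 CPM in serum-free medium (SD, n = 4 each). All 48 members had their lowest group mean in serum-free medium, whereas 33.7% of 11473 genes with a mean of at least 10 counts per library did. The members were not put through that filter. Kyse30 was arranged differently. Its sum was 2256 ± 235 CPM with the MEK inhibitor, 2324 ± 314 CPM with cetuximab, 1924 ± 526 CPM in invasive cells (2185 ± 69.2 CPM in the 3 deeper libraries), 1522 ± 232 CPM in non-invasive cells and 1630 ± 44.0 CPM in serum-free medium (SD, n = 4 unless stated). Without the shallow library, 28 members were lowest in non-invasive cells and 18 in serum-free medium, against 10.7% and 27.8% of 11415 genes. With all libraries these counts were 22 and 17, against 7.04% and 24.5% of 11339 genes. In bulk libraries fewer cells in S phase and less of these RNAs per cell cannot be told apart.

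**Figure D1:**
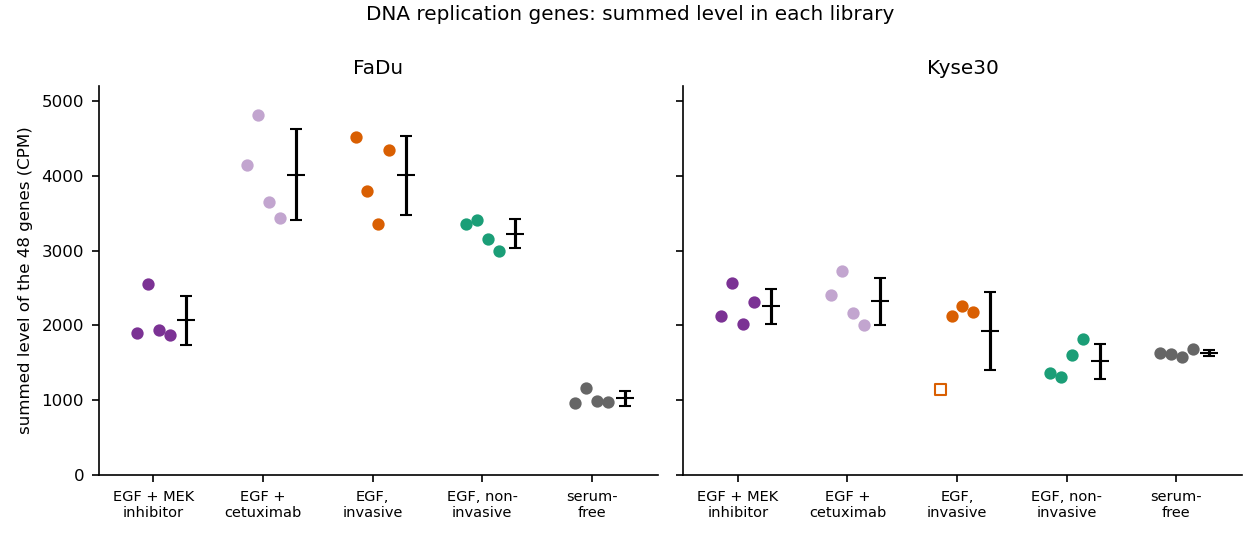
Summed CPM of the 48 replication genes (vertical axis) in each library by group (horizontal axis), with FaDu on the left and Kyse30 on the right; bars are means, error bars are SD over 4 libraries, points are libraries, and the open square is the shallow Kyse30 library. The FaDu serum-free libraries, with a mean of 1023 CPM, lie below every other FaDu library, while the Kyse30 groups span a narrower range.

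EGF-treated non-invasive cells were compared with serum-free spheroids. The serum-free spheroids are unselected, so EGF and cell selection cannot be told apart in this comparison. In FaDu, 45 of the 48 members rose and 0 fell (edgeR quasi-likelihood test, Benjamini-Hochberg adjusted over 12131 genes, called at an adjusted p under 0.05). Of all genes tested, 25.3% were called higher and 24.7% lower. The members' median log2 fold change was 1.90, a 3.74-fold difference, beside -0.02 for all genes. The 3 members that were not called were POLD1, the catalytic subunit of polymerase delta, at 0.65 ± 0.31 (SE, adjusted p = 0.0808), its accessory subunit POLD3 at 0.41 ± 0.21 (adjusted p = 0.0997), and RPA1, the large subunit of the single-strand binding protein, at 0.25 ± 0.19 (adjusted p = 0.271).

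All 11 licensing genes rose in FaDu, with a median log2 fold change of 2.26. CDC6, which loads the MCM helicase, had 83.1, 78.5, 75.1 and 58.5 CPM in the non-invasive libraries and 2.04, 3.75, 2.84 and 5.55 CPM in the serum-free ones. Every non-invasive library was far above the highest serum-free library, and the log2 fold change of 4.31 ± 0.24 (SE, edgeR adjusted p = 1.34e-13) was the largest of the 48 members. MCM7, a subunit of the helicase ring, had 184, 203, 172 and 149 CPM in the non-invasive libraries against 29, 41.1, 29.2 and 41.3 CPM in serum-free medium, groups that did not overlap (2.32 ± 0.22, edgeR adjusted p = 6.57e-09). ORC6, a subunit of the origin recognition complex, rose by 3.37 ± 0.23 (edgeR adjusted p = 3.74e-12).

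The 6 genes of helicase activation rose with a median of 2.89. MCM10, which helps the loaded helicase start unwinding, had 37.0, 29.4, 31.0 and 33.9 CPM in non-invasive cells and 2.04, 6.33, 0.567 and 1.76 CPM in serum-free medium, with no overlap (3.53 ± 0.36, edgeR adjusted p = 1.38e-08). Among the polymerase genes 6 of 8 rose, with a median of 1.44. The largest change there was that of POLE2, the second subunit of polymerase epsilon, with 4.26, 9.32, 6.02 and 5.08 CPM in non-invasive cells against 0.409, 1.64, 1.13 and 0.252 CPM in serum-free medium (2.73 ± 0.52, edgeR adjusted p = 9.49e-05), which rests on few reads in serum-free medium although the groups did not overlap.

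All 6 genes of the clamp and its loader rose (median 1.82). RFC3, a loader subunit, had 64.1, 65.7, 56.0 and 63.4 CPM in non-invasive cells and 15.9, 18.1, 9.65 and 8.82 CPM in serum-free medium, without overlap (2.25 ± 0.25, edgeR adjusted p = 3.11e-08). The large loader subunit RFC1 rose least, by 0.47 ± 0.12 (edgeR adjusted p = 0.00141). Of the Okazaki fragment enzymes, the flap nuclease FEN1 had 123, 129, 104 and 79.8 CPM in non-invasive cells and 12.7, 28.2, 23.0 and 13.1 CPM in serum-free medium (2.48 ± 0.25, edgeR adjusted p = 2.29e-08), and the ligase LIG1 also rose. The single-strand binding genes moved least as a role, with a median of 0.59. RPA2 had 36.1, 32.1, 30.3 and 34.8 CPM in non-invasive cells against 15.9, 24.4, 15.0 and 16.1 CPM in serum-free medium, without overlap (0.89 ± 0.25, edgeR adjusted p = 0.00397).

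All 4 nucleotide supply genes rose (median 2.90). RRM2, the small subunit of ribonucleotide reductase, had 63.9, 60.6, 46.8 and 49.6 CPM in non-invasive cells and 2.45, 5.87, 1.70 and 2.77 CPM in serum-free medium, far apart (4.04 ± 0.28, edgeR adjusted p = 6.01e-12). Thymidine kinase TK1 rose by 3.02 ± 0.23 (edgeR adjusted p = 2.37e-11). The 5 chromatin genes rose with a median of 1.79, led by UHRF1, which brings the maintenance methyltransferase to new DNA and had 10.3, 13.7, 6.91 and 5.08 CPM in non-invasive cells against 0.817, 0.469, 0.567 and 0.252 CPM in serum-free medium. Its log2 fold change of 4.10 ± 0.78 (edgeR adjusted p = 0.00012) rests on only 2, 2, 2 and 1 reads in the serum-free libraries. DNMT1, that methyltransferase, is read more deeply, with 400.0, 434, 431 and 389 CPM in non-invasive cells and 109, 138, 116 and 115 CPM in serum-free medium (1.79 ± 0.14, edgeR adjusted p = 3.46e-11). The 3 drivers of S phase entry rose with a median of 2.54. Cyclin E2, CCNE2, had 15.2, 10.7, 11.6 and 8.71 CPM in non-invasive cells against 1.23, 1.64, 1.13 and 0.504 CPM in serum-free medium (3.33 ± 0.48, edgeR adjusted p = 2.23e-06). That change rests on few reads in serum-free medium. The transcription factor E2F1 had 19, 17.2, 16.5 and 19.1 CPM in non-invasive cells against 2.45, 4.22, 2.84 and 2.52 CPM in serum-free medium (2.54 ± 0.35, edgeR adjusted p = 1.01e-06). Neither gene's groups overlapped.

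**Figure D2:**
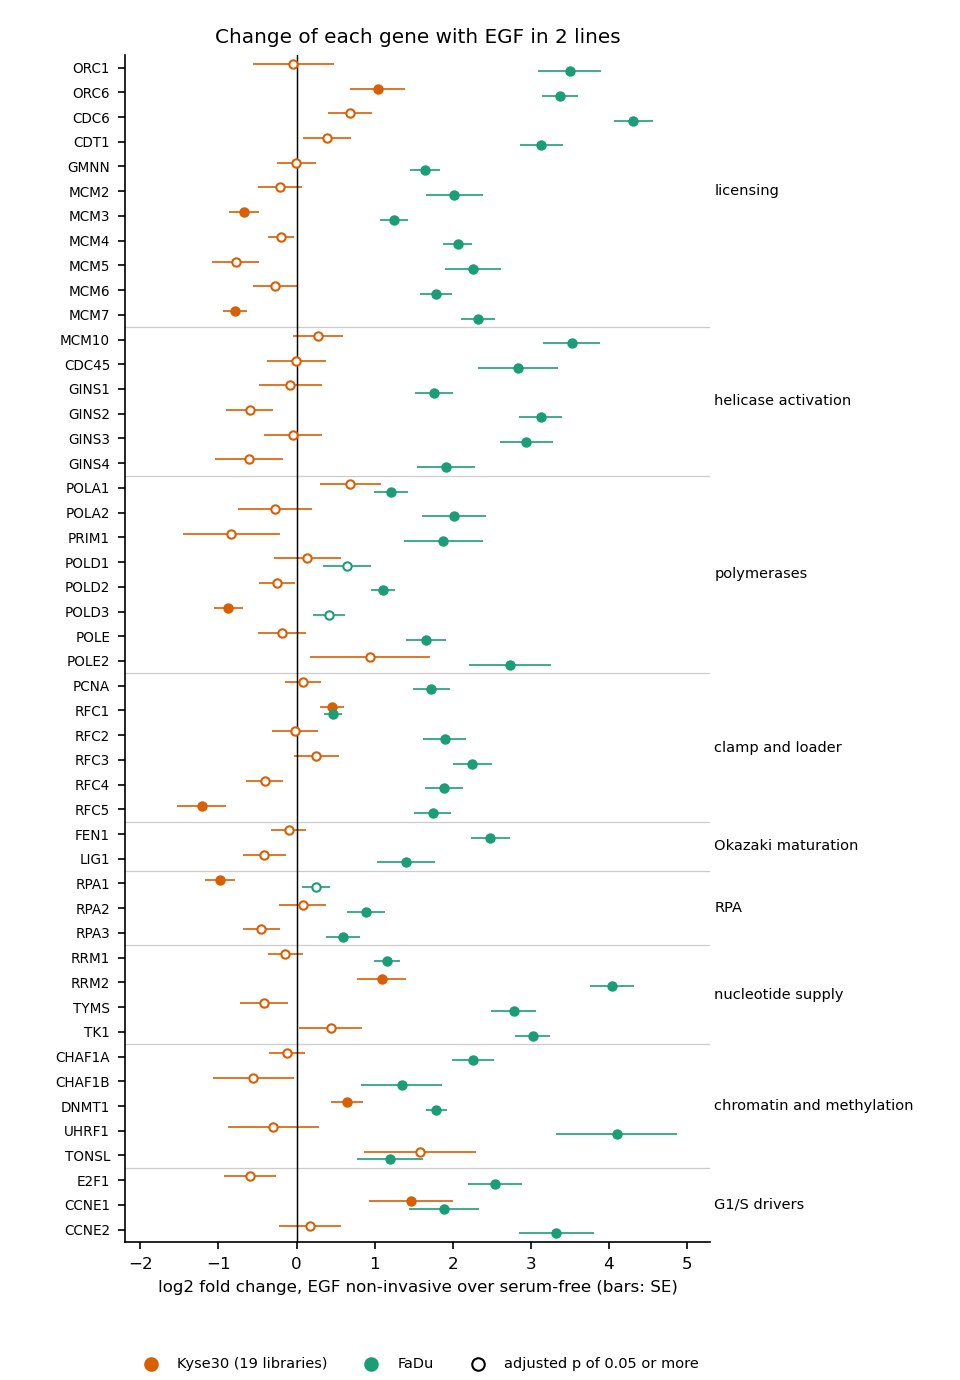
Log2 fold change of each member between EGF-treated non-invasive cells and serum-free spheroids (horizontal axis), with genes grouped by role on the vertical axis, for Kyse30 (19 libraries, orange) and FaDu (20 libraries, green); bars are SE and open symbols mark an adjusted p of 0.05 or more. The FaDu symbols lie above 0 for all 48 genes with a median of 1.90, and the Kyse30 symbols scatter on both sides of 0 with a median of -0.11.

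In Kyse30 the same comparison gave little change in the set. With all 20 libraries 0 members rose and 2 fell (edgeR, 8.10% of all 11976 genes tested called higher and 4.76% lower), and with 19 libraries 5 rose and 5 fell (15.9% higher and 12.0% lower). The median log2 fold change was -0.11 either way, beside 0.03 for all genes. MCM7 had 84.9, 71.5, 74.3 and 104 CPM in non-invasive cells and 137, 168, 117 and 155 CPM in serum-free medium, so that every non-invasive library was lower (-0.78 ± 0.19, edgeR adjusted p = 0.00623). RPA1 had 40.9, 41.8, 29.6 and 46.0 CPM in non-invasive cells against 76.9, 79.7, 80.2 and 77.1 CPM in serum-free medium, with the serum-free libraries close to each other and all above the rest (-0.98 ± 0.27, edgeR adjusted p = 0.0165). With 19 libraries the licensing subunit MCM3 (-0.67 ± 0.19), the loader subunit RFC5 (-1.22 ± 0.32) and POLD3 (-0.87 ± 0.19) fell as well, with edgeR adjusted p-values of 0.0104, 0.00485 and 0.000769 (0.0575, 0.0671 and 0.127 with 20).

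The 5 Kyse30 members that rose with 19 libraries were RRM2, ORC6, CCNE1, DNMT1 and RFC1. RRM2 had 36.2, 26.4, 26.2 and 53.2 CPM in non-invasive cells and 24.2, 5.46, 18.9 and 19.1 CPM in serum-free medium, without overlap (1.09 ± 0.31, edgeR adjusted p = 0.0115; 0.19 with all 20 libraries). ORC6 had 20.4, 10.8, 31.2 and 21.9 CPM in non-invasive cells against 13.2, 6.43, 11.8 and 9.32 CPM in serum-free medium, where 1 non-invasive library lay within the serum-free range (1.04 ± 0.35, edgeR adjusted p = 0.0275; 0.205 with all 20). Cyclin E1, CCNE1, had 3.77, 10.2, 9.62 and 10.8 CPM in non-invasive cells against 4.76, 4.50, 0 and 2.97 CPM in serum-free medium, with overlap in 1 library (1.47 ± 0.54, edgeR adjusted p = 0.0428; 0.157 with all 20). DNMT1 rose by 0.64 ± 0.20 and RFC1 by 0.45 ± 0.15 (edgeR adjusted p = 0.0184 and 0.0276, 19 libraries; 0.11 and 0.114 with 20).

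The other Kyse30 members with the largest values of their role were not called with either set of libraries, apart from RFC5. GINS2, a subunit of the helicase activator, had 7.23, 13.9, 8.85 and 11.9 CPM in non-invasive cells and 17.6, 16.7, 16.9 and 13.1 CPM in serum-free medium, overlapping in 1 library (-0.61 ± 0.44, edgeR adjusted p = 0.41 with 20 libraries). RFC5 had 7.23, 8.02, 6.93 and 11 CPM in non-invasive cells and 17.2, 22.8, 18.1 and 19.9 CPM in serum-free medium. These groups did not overlap, and the adjusted p with 20 libraries was 0.0671. The ligase LIG1 had 18.2, 15.4, 38.1 and 23.2 CPM in non-invasive cells against 34.4, 29.2, 22.4 and 39.0 CPM in serum-free medium, ranges that overlapped (-0.41 ± 0.41, edgeR adjusted p = 0.593). POLE2 and TONSL, a histone reader at the fork, had few reads. POLE2 had 4.09, 1.95, 2.31 and 2.03 CPM in non-invasive cells and 2.93, 0, 1.96 and 0.424 CPM in serum-free medium, and TONSL had 5.03, 2.17, 10.8 and 5.64 CPM in non-invasive cells and 1.10, 1.29, 0 and 5.51 CPM in serum-free medium. Both pairs of ranges overlapped. Kyse30 non-invasive libraries also differed in quality, since MALAT1 took 6.27% and 9.63% of counts in replicates 1 and 3 and 1.68% and 1.91% in replicates 2 and 4, with mitochondrial shares of 17.4%, 19.3%, 8.22% and 8.95%. MALAT1 took 1.93% to 8.18% in invasive Kyse30 libraries. It took at most 1.20% with the MEK inhibitor, 1.31% with cetuximab and 1.27% in serum-free medium, below every non-invasive library. Its part in the results was not tested. Without non-invasive replicates 1 and 3 and the shallow library 6 members were called. In the same 17 libraries the Kyse30 counts given further on were 11 for cetuximab and 7 for the MEK inhibitor against non-invasive cells, and 16 for each against serum-free medium. The share of all genes called in the 17-library fits is not given, so these counts, and the 6, cannot be set against it.

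The difference between the lines was tested as the change between non-invasive cells and serum-free medium in Kyse30 minus that in FaDu. It was negative and called for 39 of the 48 members with all libraries and for 41 without the shallow one, and positive for 0 (edgeR, 6.20% of all genes called lower and 9.48% higher with all libraries, 10.9% and 13.8% without it). The members' median difference was -2.24 on the log2 scale, beside 0.08 for all genes. All 11 licensing genes (median -2.33) and all 6 genes of helicase activation (median -2.90) were among the 39, and 5 of the 8 polymerase genes (median -1.57). UHRF1 differed by -4.38 ± 1.03 (edgeR adjusted p = 0.00244), GINS2 by -3.73 ± 0.51 (9.42e-07), CDC6 by -3.63 ± 0.53 (3.49e-06) and MCM7 by -3.10 ± 0.29 (3.47e-10). The 9 members that were not called with all libraries were POLA1, POLD1, POLE2, RFC1, RPA2, RPA3, CHAF1B, TONSL and CCNE1.

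Invasive and non-invasive cells of the same EGF treatment were compared next. In FaDu, 2 members rose and 0 fell, while 0.659% of all genes were called higher and 2.34% lower (edgeR). The members' median log2 fold change was 0.29, beside -0.01 for all genes. An unadjusted edgeR p under 0.05 was found for 12 members and for 1972 of all genes tested. With the libraries of both lines in 1 fit, 0 members were called. DNMT1 had 587, 668, 573 and 674 CPM in invasive cells and 400.0, 434, 431 and 389 CPM in non-invasive cells, without overlap (0.60 ± 0.13, edgeR adjusted p = 0.0093). TONSL had 12.0, 18.5, 16.2 and 14.1 CPM in invasive cells against 6.72, 4.43, 3.57 and 3.14 CPM in non-invasive cells, again without overlap (1.75 ± 0.36, edgeR adjusted p = 0.00462). CDC6, the member of largest change against serum-free medium, was at 109, 88.2, 79.1 and 105 CPM in invasive cells and 83.1, 78.5, 75.1 and 58.5 CPM in non-invasive cells. These ranges overlapped and did not pass the test (0.37 ± 0.18, edgeR adjusted p = 0.317).

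In Kyse30 the count was 0 with all 20 libraries (edgeR, 0.0668% of all genes called higher and 0.342% lower). The medians were 0.46 for the members and -0.15 for all genes. An unadjusted edgeR p under 0.05 was found for 3 members and for 1549 of all genes tested. DESeq2 also called 0 members. With the 3 deeper invasive libraries 4 members rose and 0 fell, while 0.729% of genes were called higher and 1.37% lower, and the medians were 0.62 for the members and -0.04 for all genes. CDC6 had 41.0, 38.7 and 39.6 CPM in these 3 libraries and 0 in the shallow one, against 13.8, 18, 17.3 and 20.3 CPM in non-invasive cells, so that the 3 lay well above (1.19 ± 0.28, edgeR adjusted p = 0.0212, 19 libraries). RRM2 had 74, 76.1 and 102 CPM in the deeper invasive libraries, and 0 in the shallow one, against 36.2, 26.4, 26.2 and 53.2 CPM in non-invasive cells (1.24 ± 0.31, edgeR adjusted p = 0.0351, 19 libraries). The helicase subunit MCM4 (0.74 ± 0.18) and FEN1 (1.03 ± 0.23) completed the 4, with edgeR adjusted p-values of 0.0253 and 0.0136. The change in Kyse30 minus that in FaDu was called for 0 members with either set of libraries (median 0.15, or 0.35 without the shallow library). Of all genes 0.142% were called higher and 0.0395% lower with all libraries. With all libraries 1 member had an unadjusted edgeR p under 0.05, beside 1191 of all genes tested. Without the shallow library 4 did, beside 1475 of all genes tested.

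Cetuximab was added to EGF to block its receptor. The non-invasive libraries it is set against are those used above and for the MEK inhibitor. In FaDu the replication genes were not lower with it. Against non-invasive cells 4 members rose and 0 fell, with 3.64% of all genes called higher and 4.93% lower (edgeR; medians 0.39 for the members and 0.05 for all genes). MCM3 had 224, 382, 212 and 191 CPM with cetuximab and 158, 154, 165 and 159 CPM in non-invasive cells, without overlap (0.66 ± 0.17, edgeR adjusted p = 0.0135). TK1 (0.62 ± 0.19), the polymerase delta subunit POLD2 (0.49 ± 0.15) and the small binding subunit RPA3 (0.74 ± 0.21) were the others, with edgeR adjusted p-values of 0.0411, 0.0365 and 0.024. This count fell to 1 when any of cetuximab replicates 2 and 3 or non-invasive replicates 3 and 4 was left out, and to 2 without cetuximab replicate 1, non-invasive replicate 1 or 2 or MEK inhibitor replicate 4, and it was 0 with the libraries of both lines in 1 fit. KRT5 rose (2.33 ± 0.34, edgeR adjusted p = 0.000219) and KRT6A fell (-3.86 ± 0.43, edgeR adjusted p = 7.16e-07) in the same comparison. CDC6 stood at 76.2, 112, 63.7 and 64.0 CPM with cetuximab, which overlapped the 83.1, 78.5, 75.1 and 58.5 CPM of non-invasive cells (0.09 ± 0.18, edgeR adjusted p = 0.83). Against serum-free medium, the same serum-free libraries as above, all 48 members rose with cetuximab (edgeR, 22.7% of all genes called higher and 21.1% lower; median 2.39 beside -0.01), with log2 fold changes between 0.58 ± 0.12 for RFC1 and 4.41 ± 0.24 for CDC6.

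In Kyse30, 4 members rose with cetuximab against non-invasive cells with all 20 libraries (1.85% of all genes called higher and 3.08% lower), and 19 with the 19 libraries (7.37% and 9.76%), with 0 lower in both (edgeR; median 0.72 beside -0.03 with all libraries). Of the 19, 7 were licensing genes. In the same comparison KRT6A fell (-4.71 ± 0.67, edgeR adjusted p = 8.32e-05) and CDH5 rose (2.33 ± 0.47, edgeR adjusted p = 0.00336). E2F1 had 27.5, 32.2, 22.5 and 17.3 CPM with cetuximab and 6.61, 10.6, 6.93 and 6.31 CPM in non-invasive cells, without overlap (1.69 ± 0.43, edgeR adjusted p = 0.0209 with 20 libraries). MCM3 had 205, 169, 155 and 152 CPM with cetuximab against 65.1, 58.5, 82.8 and 81.4 CPM in non-invasive cells (1.24 ± 0.23, edgeR adjusted p = 0.00172), every cetuximab library being higher. MCM7 had 168, 182, 162 and 157 CPM with cetuximab against 84.9, 71.5, 74.3 and 104 CPM in non-invasive cells (1.00 ± 0.19, edgeR adjusted p = 0.00191), and MCM5 was the other gene called (1.55 ± 0.44, edgeR adjusted p = 0.0397). With 20 libraries the 4 fell to 2 without cetuximab replicate 1 or 2 or non-invasive replicate 1 or 3. Against serum-free medium, 0 members were called with 20 libraries (1.88% of all genes called higher and 1.25% lower). DESeq2 called 8 in that comparison, with its share of all genes not given. An unadjusted edgeR p under 0.05 was found there for 14 members and for 2057 of all genes tested. With 19 libraries 13 members rose (8.72% and 6.42%), and the median was 0.59 in the 20-library fit. CDC6, at 36.0, 46.2, 28.2 and 27.3 CPM with cetuximab and 12.5, 5.46, 9.04 and 16.9 CPM in serum-free medium, was among the 13 (1.66 ± 0.28, edgeR adjusted p = 0.000211; 0.0523 with 20 libraries). The change between cetuximab and non-invasive cells in Kyse30 minus that in FaDu was called for 0 members with either set of libraries. The members' median was 0.37 with all libraries, where 0.751% of all genes were called higher and 0.561% lower (edgeR). With all libraries 6 members had an unadjusted edgeR p under 0.05, beside 1458 of all genes tested. Without the shallow library 8 did, beside 2096 of all genes tested.

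**Figure D3:**
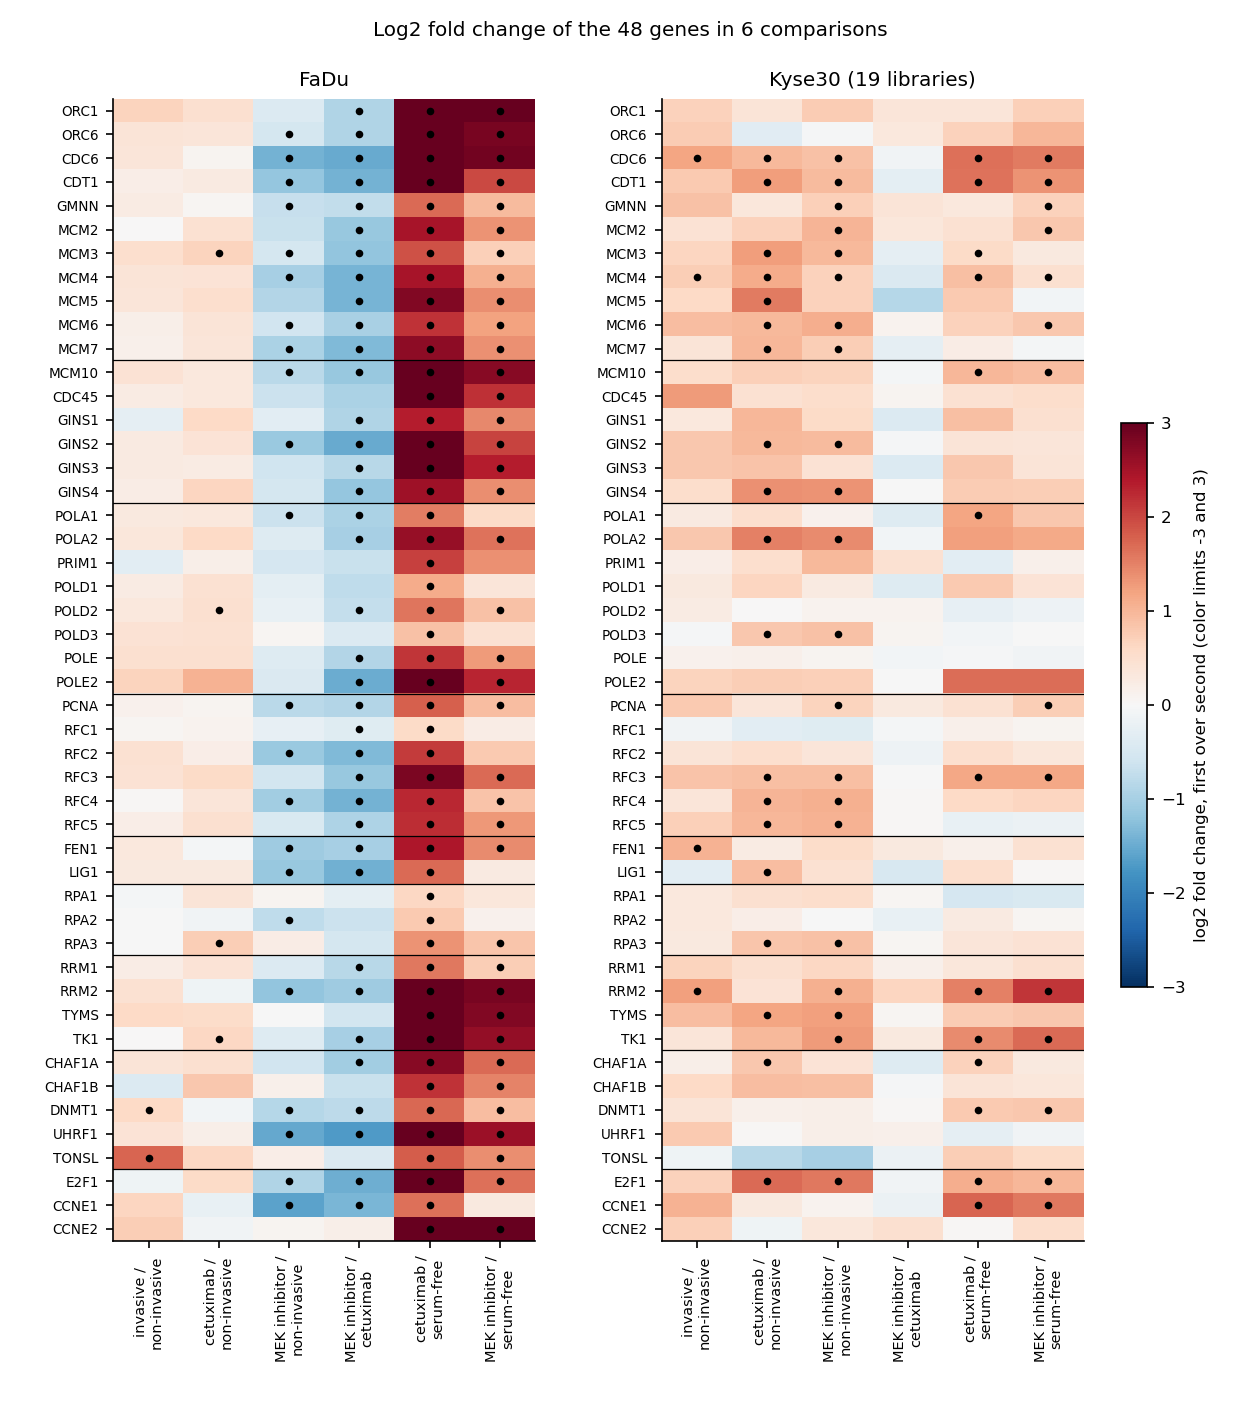
Log2 fold change (colour, limits -3 and 3) of the 48 members (rows, by role) in 6 comparisons (columns) in FaDu and in Kyse30 (19 libraries); dots mark an adjusted p under 0.05. FaDu columns against serum-free medium are positive nearly throughout, with 48 of 48 genes called for cetuximab and 38 of 48 for the MEK inhibitor. The FaDu MEK inhibitor columns against non-invasive cells and cetuximab are negative for most genes.

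The MEK inhibitor, by contrast, was accompanied by lower replication genes in FaDu. Against non-invasive cells 22 members fell and 0 rose, with 14.8% of all genes called higher and 14.9% lower (edgeR; median -0.58 beside 0.03). With the libraries of both lines in 1 fit, 12 fell. The share of all genes called in that fit is not given, so the 12 cannot be set against it. Squamous markers moved in the same comparison, 3 of 8 higher and 2 lower. KRT5 had 917, 1008, 1105 and 1120 CPM with the inhibitor and 100.2, 63.6, 84.0 and 59.3 CPM in non-invasive cells, without overlap (3.76 ± 0.36, edgeR adjusted p = 3.95e-07), and KRT6A fell by 4.63 ± 0.47 (edgeR adjusted p = 1.54e-08). Of the 3 other markers COL1A1 rose (1.00 ± 0.36) and CD68 fell (-2.51 ± 0.56), with edgeR adjusted p-values of 0.0351 and 0.00126. The part of these markers in the fall of the replication genes was not tested. The 22 comprised 8 of 11 licensing genes (median -0.68), 2 of 6 for helicase activation, 1 of 8 polymerase genes, 3 of 6 for the clamp and loader, both Okazaki fragment enzymes (median -1.10), 1 of 3 single-strand binding genes, 1 of 4 for nucleotide supply, 2 of 5 chromatin genes and 2 of 3 S phase drivers. CDC6 had 28.5, 31.1, 26.0 and 24.5 CPM with the inhibitor, below all 4 non-invasive libraries at 83.1, 78.5, 75.1 and 58.5 CPM (-1.42 ± 0.19, edgeR adjusted p = 2.22e-06). RRM2 had 15.5, 35.3, 22.1 and 23.2 CPM with the inhibitor against 63.9, 60.6, 46.8 and 49.6 CPM in non-invasive cells, also without overlap (-1.19 ± 0.22, edgeR adjusted p = 0.000169). FEN1 had 48.3, 75.6, 41.3 and 44.5 CPM with the inhibitor against 123, 129, 104 and 79.8 CPM in non-invasive cells (-1.06 ± 0.23, edgeR adjusted p = 0.0013), a smaller gap with no overlap.

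MCM4 had 153, 241, 146 and 144 CPM with the inhibitor and 326, 372, 347 and 327 CPM in FaDu non-invasive cells, without overlap (-1.0 ± 0.18, edgeR adjusted p = 0.000139). Of the cyclin E genes, CCNE1 fell and CCNE2 was not called. CCNE1 had 0, 6.92, 4.55 and 2.13 CPM with the inhibitor against 15.2, 8.85, 10.0 and 9.19 CPM in non-invasive cells (-1.60 ± 0.43, edgeR adjusted p = 0.00599), whereas CCNE2 had 20.1, 12.5, 9.09 and 8.08 CPM with the inhibitor against 15.2, 10.7, 11.6 and 8.71 CPM in non-invasive cells, ranges that overlapped throughout (0.08 ± 0.36, edgeR adjusted p = 0.894). Thymidylate synthase TYMS was likewise not called, with 26.4, 21.2, 24 and 15.7 CPM with the inhibitor against 27.3, 21.9, 18.9 and 19.1 CPM in non-invasive cells (-0.01 ± 0.23, edgeR adjusted p = 0.987). E2F1 fell, with 6.34, 13.8, 9.51 and 8.51 CPM with the inhibitor against 19, 17.2, 16.5 and 19.1 CPM in non-invasive cells (-0.90 ± 0.30, edgeR adjusted p = 0.0255).

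MEK inhibitor and cetuximab libraries are both labelled unselected. Set against each other in FaDu, 37 members fell with the MEK inhibitor and 0 rose, with 8.54% of all genes called higher and 11.2% lower (edgeR; median -0.96 beside 0.00). With the libraries of both lines in 1 fit, 17 fell, and here too the share of all genes called is not given. Of the squamous markers 4 were higher and 1 lower with the MEK inhibitor, KRT5 by 1.43 ± 0.32 (edgeR adjusted p = 0.00444), and 0 of the 3 stromal, endothelial and immune markers were called. All 11 licensing genes fell (median -1.19), as did all 6 of the clamp and loader, both Okazaki fragment enzymes, 5 of 6 for helicase activation and 5 of 8 polymerase genes, while 0 of 3 single-strand binding genes did. MCM4 had 153, 241, 146 and 144 CPM with the MEK inhibitor and 467, 658, 374 and 313 CPM with cetuximab, without overlap (-1.40 ± 0.18, edgeR adjusted p = 4.64e-06). CDC6 differed by -1.51 ± 0.19 (edgeR adjusted p = 2.63e-06) and MCM3 by -1.19 ± 0.17 (edgeR adjusted p = 1.85e-05), while CCNE2 differed by 0.18 ± 0.36 (edgeR adjusted p = 0.784).

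The FaDu replication genes did not fall to their serum-free level with the MEK inhibitor. Against serum-free medium 38 members were still higher and 0 lower (edgeR, 10.8% of all genes called higher and 8.63% lower; median 1.38 beside -0.00), including all 11 licensing genes, all 6 of helicase activation, all 4 of nucleotide supply and all 5 chromatin genes. CDC6, with 28.5, 31.1, 26.0 and 24.5 CPM, lay above all serum-free libraries at 2.04, 3.75, 2.84 and 5.55 CPM (2.89 ± 0.25, edgeR adjusted p = 1.66e-09), and RRM2 was higher by 2.85 ± 0.29 (edgeR adjusted p = 2.7e-08). The 10 members that were not called were POLA1, PRIM1, POLD1, POLD3, RFC1, RFC2, LIG1, RPA1, RPA2 and CCNE1. Of these, LIG1 was at 0.27 ± 0.39 (edgeR adjusted p = 0.689) and RFC2 at 0.78 ± 0.29 (edgeR adjusted p = 0.0556).

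Kyse30 went the other way against non-invasive cells. With the MEK inhibitor 3 members rose and 0 fell with all 20 libraries (1.65% of all genes called higher and 2.91% lower), and 21 rose with the 19 (5.84% and 8.56%), of which 8 were licensing genes and 3 of nucleotide supply (edgeR; median 0.69 beside -0.02 with all libraries). E2F1 had 20.5, 27.9, 21.0 and 23.4 CPM with the inhibitor and 6.61, 10.6, 6.93 and 6.31 CPM in non-invasive cells, without overlap (1.59 ± 0.43, edgeR adjusted p = 0.0316 with 20 libraries). MCM3 (0.97 ± 0.23) and MCM7 (0.73 ± 0.19) were the other genes called with 20 libraries, with edgeR adjusted p-values of 0.0125 and 0.0215. RRM2 had 78.4, 88.9, 62.6 and 69.0 CPM with the inhibitor against 36.2, 26.4, 26.2 and 53.2 CPM in non-invasive cells, all higher (1.07 ± 0.29, edgeR adjusted p = 0.0142, 19 libraries; 0.278 with 20). With 20 libraries the 3 calls fell to 1 without non-invasive replicate 2 or 3 or MEK inhibitor replicate 2, and to 0 without MEK inhibitor replicate 4. KRT6A fell in this comparison too (-3.90 ± 0.63, edgeR adjusted p = 0.000304). The part of the markers in these results was not tested.

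Between MEK inhibitor and cetuximab, 0 Kyse30 members were called by edgeR with either set of libraries, and DESeq2 called 0. Of all genes 0.593% were called higher and 0.585% lower with all libraries, and 2.24% and 2.43% with 19. An unadjusted edgeR p under 0.05 was found for 0 and 3 members, beside 998 and 2051 of all genes tested. The members' values with 20 libraries ran from -0.86 for MCM5 to 0.65 for RRM2 with a median of -0.01. Against serum-free medium 1 member rose with the inhibitor with all 20 libraries (2.29% of all genes called higher and 1.61% lower) and 14 with 19 (8.52% and 6.90%), with 0 lower. RRM2 was the 1, at 78.4, 88.9, 62.6 and 69.0 CPM with the inhibitor against 24.2, 5.46, 18.9 and 19.1 CPM in serum-free medium, every inhibitor library being higher (2.15 ± 0.53, edgeR adjusted p = 0.0206). That call was lost without MEK inhibitor replicate 1, 2 or 3 or serum-free replicate 2, 3 or 4, and 2 members were called without non-invasive replicate 3.

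The change between MEK inhibitor and non-invasive cells in Kyse30 minus that in FaDu was positive and called for 16 members with all libraries and 28 without the shallow one, and negative for 0 (edgeR, 2.27% of all genes called higher and 2.83% lower with all libraries, 5.82% and 5.63% without it; median 1.47 beside -0.05 with all libraries). E2F1 differed by 2.50 ± 0.52 (edgeR adjusted p = 0.00197), CDC6 by 2.32 ± 0.47 (0.00125) and RRM2 by 2.27 ± 0.56 (0.01). Leaving out replicate 2, 3 or 4 in both lines left 7, 6 and 4 members.

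**Figure D4:**
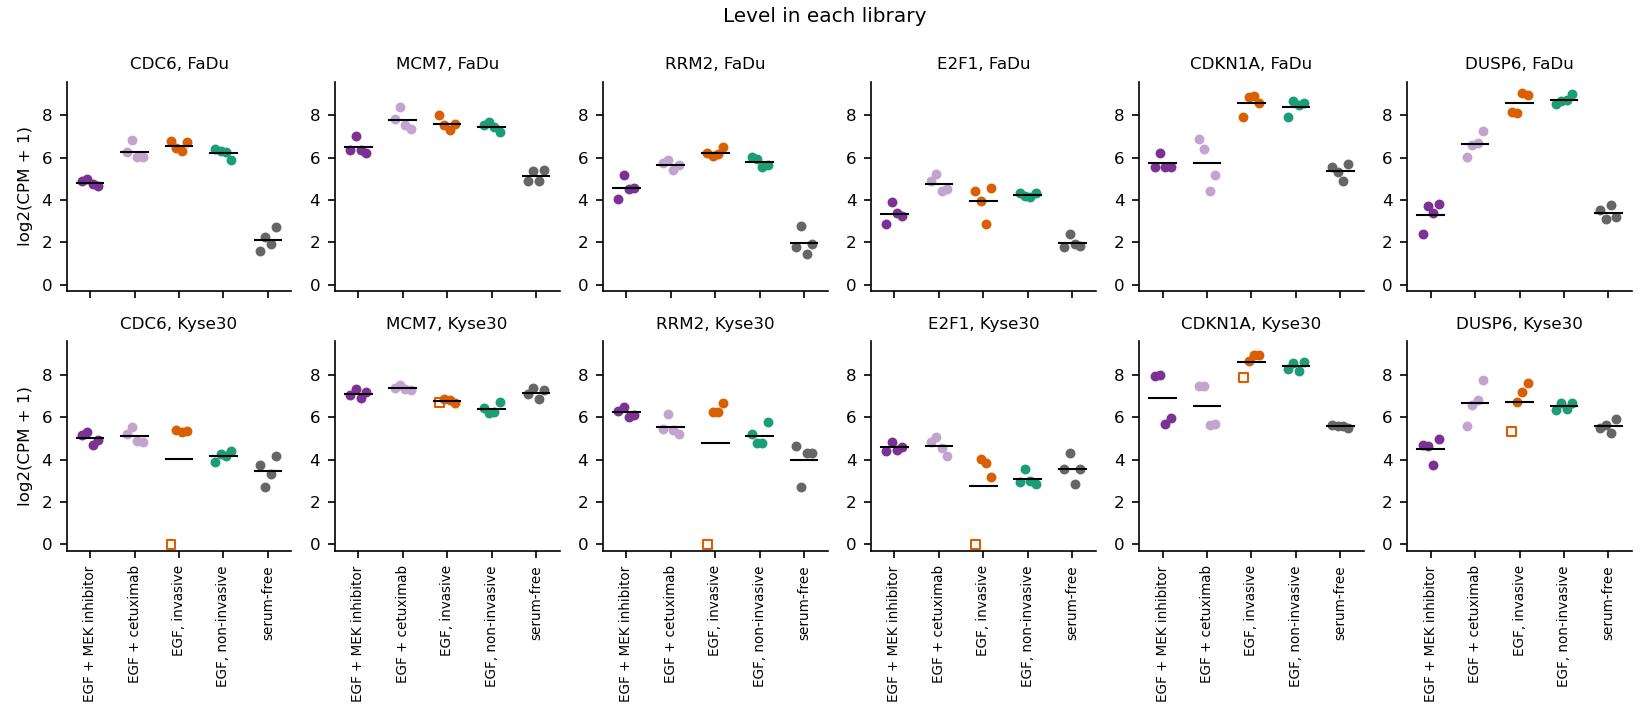
Level as log2(CPM + 1) (vertical axis) of CDC6, MCM7, RRM2, E2F1, CDKN1A and DUSP6 in each library by group (horizontal axis), in FaDu and Kyse30; lines are group means and the open square is the shallow Kyse30 library. In FaDu the 4 replication genes lie lowest in serum-free medium, between there and non-invasive cells with the MEK inhibitor, and with cetuximab near the EGF groups, while CDKN1A and DUSP6 are lower with cetuximab than in non-invasive cells.

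Genes around the pathway placed these values. Other replication genes followed the set in FaDu, with 24 of 36 higher and 0 lower in non-invasive cells against serum-free medium (median 1.04), led by CLSPN, an adaptor of the replication checkpoint (3.73 ± 0.34, edgeR adjusted p = 2.41e-08), and by DSCC1, a subunit of an alternative clamp loader (3.41 ± 0.29). Against non-invasive cells 5 rose and 1 fell with cetuximab, and 0 rose and 11 fell with the MEK inhibitor, while 21 fell and 0 rose with the MEK inhibitor against cetuximab. In Kyse30 non-invasive cells against serum-free medium, 1 of the 36 rose and 0 fell with all libraries (1 and 2 with 19). Of 18 G1/S regulators 14 rose and 1 fell in FaDu non-invasive cells against serum-free medium, with cyclin A2 (CCNA2) at 3.87 ± 0.26 and the repressor E2F7 at 3.59 ± 0.38, and in Kyse30 1 of 16 tested rose and 0 fell with all libraries (1 and 2 of 17 with 19). Against non-invasive cells 1 rose and 9 fell with the MEK inhibitor in FaDu.

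Mitotic genes were counted beside the replication set. All 20 listed mitotic genes rose in FaDu non-invasive cells against serum-free medium (median 3.29), with AURKB, a kinase of chromosome segregation, at 4.61 and BIRC5, its partner, at 4.40. In Kyse30, where 0 replication genes rose in the 20-library fit, 9 of these 20 rose and 0 fell, and 15 rose with 19 libraries (median 1.15 with all), among them the checkpoint kinase BUB1B (2.98 ± 0.54, edgeR adjusted p = 0.000492) and the kinetochore motor CENPE (2.21 ± 0.32, edgeR adjusted p = 3.65e-05). With the MEK inhibitor in FaDu 1 rose and 4 fell against non-invasive cells (median -0.35), 15 fell and 0 rose against cetuximab (median -0.76), and all 20 stayed higher than in serum-free medium (median 3.04).

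Genes that ERK signalling is known to switch on were given as a reading of the pathway. In FaDu 11 of 13 rose and 0 fell in non-invasive cells against serum-free medium, and SPRY4, a feedback inhibitor, at 8.93 ± 3.02 CPM in non-invasive cells (SD, n = 4) and 0 counts in every serum-free library, was at least 42.3-fold higher, with 3 counts over the serum-free group as the floor. The ERK phosphatase DUSP6 had 4.23, 12.0, 9.51 and 13 CPM with the MEK inhibitor, 64.4, 96.1, 104 and 153 CPM with cetuximab, 366, 405, 417 and 520 CPM in non-invasive cells and 10.6, 7.51, 12.8 and 8.07 CPM in serum-free medium. Cetuximab libraries were thus below every non-invasive library yet above every serum-free one, and the MEK inhibitor libraries overlapped the serum-free range (0.05 ± 0.35, edgeR adjusted p = 0.939). All 13 fell with the MEK inhibitor against FaDu non-invasive cells and 3 fell with cetuximab. In Kyse30 3 rose and 3 fell in non-invasive cells against serum-free medium with all libraries, and 6 rose and 3 fell with 19. Against non-invasive cells 6 fell with the MEK inhibitor, including DUSP6, which had 25, 23.8, 12.5 and 30.4 CPM with the inhibitor against 81.5, 102, 83.1 and 102 CPM in non-invasive cells (-2.01 ± 0.40, edgeR adjusted p = 0.00294), while 1 rose and 1 fell with cetuximab, counts that were the same with 19 libraries.

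Cyclin D1, CCND1, which activates the kinases that inactivate the retinoblastoma protein, had 348, 312, 363 and 377 CPM with the MEK inhibitor, 552, 509.7, 551 and 499.8 CPM in non-invasive cells and 257, 226, 226 and 247 CPM in serum-free FaDu spheroids. The 3 groups did not overlap, and the inhibitor group lay between the others (-0.59 ± 0.11 against non-invasive cells, edgeR adjusted p = 0.000138; 0.55 ± 0.11 against serum-free medium, edgeR adjusted p = 0.000568). In Kyse30 CCND1 also fell with the inhibitor against non-invasive cells (-0.75 ± 0.18, edgeR adjusted p = 0.0143), where replication genes did not. The part of CCND1 in the level of the replication genes was not tested in either line.

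The CDK inhibitors moved in both directions. In FaDu non-invasive cells against serum-free medium 2 of 7 rose and 3 fell. CDKN1A, which encodes p21, an inhibitor of CDKs and of PCNA, had 46.9, 73.3, 46.9 and 45.7 CPM with the MEK inhibitor, 119, 84.7, 20.5 and 35.6 CPM with cetuximab, 243, 413, 357 and 379 CPM in non-invasive cells and 45.8, 39.4, 29.2 and 51.4 CPM in serum-free medium. It was higher in non-invasive cells than in serum-free medium (3.07 ± 0.43, edgeR adjusted p = 1.83e-05), and fell with the MEK inhibitor (-2.71 ± 0.42, edgeR adjusted p = 0.000134) and with cetuximab (-2.43 ± 0.41, edgeR adjusted p = 0.00113) against non-invasive cells. CDKN1B, which encodes p27, ran opposite in FaDu, with 16.4, 17.9, 23.9 and 16.0 CPM in non-invasive cells and 71.1, 58.9, 70.6 and 70.1 CPM in serum-free medium (-1.86 ± 0.28, edgeR adjusted p = 4.02e-06), and rose with the MEK inhibitor (0.98 ± 0.28, edgeR adjusted p = 0.00856), as did CDKN2B.

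In Kyse30 CDKN1A had 312, 378, 289 and 387 CPM in non-invasive cells and 49.1, 46.6, 47.5 and 44.1 CPM in serum-free medium, a wide gap without overlap (2.87 ± 0.47, edgeR adjusted p = 0.000159), although the replication set did not rise there. It fell with cetuximab against non-invasive cells (-1.61 ± 0.44, edgeR adjusted p = 0.0338), with 176, 174, 48.2 and 49.8 CPM in replicates 1 to 4. With the MEK inhibitor CDKN1A had 243, 258, 49.6 and 61.5 CPM and was not called (-1.16 ± 0.44, edgeR adjusted p = 0.151). With both drugs replicates 1 and 2 thus lay well above replicates 3 and 4. CDKN1B in Kyse30 had 39.0, 35.1, 28.1 and 42.4 CPM in non-invasive cells against 101, 81.0, 62.5 and 67.8 CPM in serum-free medium, without overlap, and was called with 19 libraries (-1.11 ± 0.21, edgeR adjusted p = 0.000246) and not with 20 (adjusted p = 0.0576). The part of the CDK inhibitors in the results was not tested.

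Reads of a few members may include those of other genes. The last 1000 bases of 9 members lie over a gene on the opposite strand in the GENCODE annotation, as for TYMS and ENOSF1 or CCNE2 and INTS8. Those of 6 lie over one on the same strand, as for FEN1 and FADS2. With the strand setting of the counting not given, partners on opposite strands cannot be told apart. Strand does not separate partners on the same strand. By symbol, 10 members have pseudogenes in RefSeq, among them PCNA, RPA2 and RPA3 and also TYMS, RRM2, FEN1 and RFC5, which are also among those groups. Of the pseudogenes 0 are in the count table. How the counting treated reads that match both a member and a pseudogene is not given.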

How the data were processed

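RNA was measured in 2 cell lines, 5 groups each and 4 libraries per group, with a Lexogen QuantSeq 3' kit that reads the 3' ends of polyadenylated transcripts. The authors deposited whole-number read counts per gene for 12655 genes, not normalized. STAR, HTSeq and GRCh38 (hg38) are named per the submitters' processing notes; the sources used here give no versions, annotation or strand setting. Groups came from the sample titles. Library totals ran from 463124 to 5669262 counts, and the counts of every replicate pair differed beyond sampling noise (chi-square over its degrees of freedom 2.42 to 67.4).

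Each line was fitted with its 20 libraries in edgeR 4.0.16 (R 4.3.3) after filterByExpr by group (minimum count 10), with TMM scaling and the robust quasi-likelihood test. The 4 differences between lines came from 1 fit of all 40 libraries. P-values were Benjamini-Hochberg adjusted over all genes tested, and genes under 0.05 were called. SE is the absolute log2 fold change divided by the square root of F. CPM values use TMM library sizes, apart from the sums of stromal, endothelial and immune markers, which use library totals. The code was tested on simulated data.

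Members and lists were chosen with earlier results of these data known. Values per library are given for the members of each role with the largest change in non-invasive cells against serum-free medium in each line and for members called against the majority; other lists are counts with the 2 largest called members plus CDKN1A, CDKN1B, CCND1 and DUSP6. DNMT1 and MCM7 in FaDu, TK1, RFC1 and the further members named in other comparisons were chosen after their values were seen.

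Alternatives were RLE scaling, no filter, a stricter filter (minimum count 30), DESeq2 1.42.0, limma-voom 3.58.1, a replicate block, other sets of libraries in the fit and each library left out. Fits without the shallow Kyse30 library were chosen after seeing the data. Same-numbered replicates deviated together, with all 4 correlations over 0.1 (0.104 to 0.352), only between MEK inhibitor and cetuximab in Kyse30, where the call was 0 with the block too.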

Additional observations from a re-analysis of the deposited data

Results flagged for a closer look

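Of 100 groups examined, 6 had a replicate set apart from the other 3 by more than Dixon's critical value for its size, and chance alone sets apart about 1 in 20. In FaDu the summed level of the 48 genes in MEK inhibitor replicate 2 was 2555 CPM and that in serum-free replicate 2 was 1166 CPM, both above the rest of their group. RPA2 in FaDu serum-free replicate 2 was at 24.4 CPM, above the others. In Kyse30 the sum in the shallow invasive replicate 1 was 1140 CPM, below the others, and in non-invasive replicate 1 POLE2 was high at 4.09 CPM and CCNE1 low at 3.77 CPM.

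The change between non-invasive cells and serum-free medium differed between Kyse30 and FaDu for 39 members by the test of the difference, by the most for UHRF1 at -4.38, GINS2 at -3.73 and CDC6 at -3.63 (log2, Kyse30 minus FaDu). The change between MEK inhibitor and non-invasive cells differed for 16 members, by the most for E2F1 at 2.50, CDC6 at 2.32 and RRM2 at 2.27.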

How the results depend on the processing

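With single libraries left out, FaDu members called ranged from 42 to 46 for non-invasive cells against serum-free medium, 2 to 3 for invasive against non-invasive cells, 1 to 5 and 15 to 28 for cetuximab and the MEK inhibitor against non-invasive cells, 30 to 39 between the inhibitors (MEK inhibitor against cetuximab), and 47 to 48 and 34 to 40 for cetuximab and the MEK inhibitor against serum-free medium. In Kyse30 the ranges in the same comparisons were 1 to 10, 0 to 4, 2 to 19, 0 to 21, 0 to 0, 0 to 13 and 0 to 14, whose highest values came without the shallow library and the low value of 1 without non-invasive replicate 3. For Kyse30 minus FaDu they were 26 to 41 for non-invasive cells against serum-free medium, 0 to 0 for the invasive and for the cetuximab comparison, and 4 to 28 for the MEK inhibitor.

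Other settings gave 147 counts of members called, of which 117 stayed within 1.5 times the reported one and 30 moved, in FaDu 52 of 56 within it. With all 40 libraries in 1 fit, FaDu counts were 0 for invasive and 0 for cetuximab against non-invasive cells, 12 for the MEK inhibitor against non-invasive cells and 17 for the MEK inhibitor against cetuximab. Kyse30 counts rested most on the settings. For non-invasive cells against serum-free medium they were 4 with RLE scaling, 5 with DESeq2, 5 with only the compared groups fitted, 6 without the 3 libraries that stand apart (the shallow one and non-invasive replicates 1 and 3, chosen after seeing the data) and 8 with all 40 libraries. For cetuximab against non-invasive cells they were 15 with DESeq2, 16 with the compared groups, 11 without the 3 libraries and 15 with all 40; for the MEK inhibitor they were 14, 21, 7 and 11 under those settings. For invasive against non-invasive cells the count was 1 without the 3 libraries, and between the inhibitors 1 with the compared groups. For cetuximab against serum-free medium counts were 1 with RLE, 8 with DESeq2, 8 with the compared groups, 16 without the 3 libraries and 11 with all 40, and for the MEK inhibitor 6 with DESeq2, 0 with limma-voom, 13 with the compared groups, 16 without the 3 libraries and 6 with all 40. For Kyse30 minus FaDu with the MEK inhibitor DESeq2 gave 25. The cause was not tested. The shares of all genes called under these settings are not given, so these counts cannot be set against them. The same holds for the replicate block and for leaving out any single library other than the shallow one.

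With a replicate block the FaDu counts, in the order of the ranges above, were 45, 2, 5, 24, 34, 48 and 37, the Kyse30 counts 2, 0, 3, 3, 0, 0 and 1, and the counts for the differences between lines 39, 0, 0 and 15. For the MEK inhibitor against cetuximab in Kyse30, 3 of 4 libraries correlated best with their own number. In every other comparison at most 2 of 4 did. The 2 were reached for the MEK inhibitor against cetuximab in FaDu and for invasive against non-invasive cells in Kyse30, among others. The labels do not say whether same-numbered libraries share a source. Depth limits members such as POLE2, TONSL, UHRF1 and CCNE1, and in FaDu also CCNE2 and ORC1, which had few or no reads in serum-free medium.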
